A study of Arabidopsis thaliana with 12 samples.

Results

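The genotype by nitrate interaction was measured here on all 12 of the 12 arrays of the study. For every probe set the response of a genotype was the log2 signal at T0.5 minus that at T0. The difference of responses was the chl1-5 response minus the wild-type response. It was taken within each of the 3 replicate numbers of the sample titles and over the 3 numbers together. A value below 0 for a transcript that rose means that it rose less in the mutant, and a value above 0 means that it rose more.

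The samples were roots of Arabidopsis thaliana in the Columbia background, either wild type or carrying the chl1-5 allele, the only mutant allele tested. Seedlings of both genotypes grew side by side on one mesh in liquid culture under continuous light, their nitrogen supplied solely as ammonium succinate (12.5 mM). At 10 days of age all plants spent 3 h in the same ammonium succinate medium brought to pH 5.5 and were washed. T0 roots were collected then, and T0.5 roots after a further 30 min in medium with 25 mM KNO3 in place of ammonium succinate. Each of the 4 groups (wild type T0, wild type T0.5, chl1-5 T0 and chl1-5 T0.5) had 3 arrays, and each replicate number pooled about 900 seedlings from 9 vessels as one independent experiment. Both genotypes therefore shared the loss of ammonium, the added potassium and the transfer itself, and no parallel transfer without nitrate is among these samples.

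CHL1, also called NRT1.1 or NPF6.3, is a plasma membrane nitrate transporter of the root that works with both low and high affinity. It is also known as a nitrate sensor that acts upstream of the primary nitrate response, the set of transcripts that change within minutes of nitrate supply. That response is known to include genes of nitrate uptake and reduction, of the oxidative pentose phosphate pathway and lower glycolysis that supply reductant and carbon skeletons, and of transcription factors of the HHO (also NIGT1) family. chl1-5 is a deletion allele. CHL1 itself was not among the probe sets with a gene name here, so its transcript was not checked against the genotype labels.

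Each array carried 22746 probe sets after removal of 64 controls. The trimmed mean of the MAS5 signals lay between 499.4 and 500.6 on each array. A scaling of the arrays to a common mean is inferred from these values. Of the 22746 probe sets, 14291 passed the filter on low signals and were tested. The number of arrays limits the precision of all that follows. The root hair expansins EXPA7 (627 to 1409.7) and EXPA18 (646 to 1164) gave clear signals on all 12 arrays, and the shoot transcript RCA, rubisco activase, lay between 539 and 698 with a difference of responses of 0.00 ± 0.17 (SE). RCA was the only one of 8 shoot markers with a named probe set, and none of 4 stele, endodermis and meristem markers had one. The T0.5 arrays of replicate number 1 stood apart in both genotypes: transcripts called as rising had a median rise of 0.65 (wild type) and 0.54 (chl1-5) on the log2 scale in number 1, against 0.95 and 0.87 in number 2 and 0.94 and 0.86 in number 3. The touch-responsive calmodulin-like gene CML38 showed it most plainly, at signals of 324 and 237 at T0.5 in number 1 and between 1071 and 1582 on the other T0.5 arrays. The 3′ to 5′ probe ratio, a measure of RNA integrity, ranged from 0.86 to 1.38 for GAPDH from 1.68 to 2.24 for ubiquitin and from 9.72 to 18.4 for actin. The difference of responses taken on the log2 ratio was 0.09, -0.03 and -0.34 in numbers 1, 2 and 3 for GAPDH, -0.35, -0.05 and 0.03 for ubiquitin and 0.17, 0.43 and -0.72 for actin. The part of these ratios in the results was not tested.

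Taken over the responding probe sets together, most of the size of the response to the transfer into nitrate was also found in chl1-5. Where the size differed, the mutant response was in most cases the smaller one. Gene by gene, most responses were unresolved, as given below. Averaged over both genotypes, 1998 of 14291 probe sets (14%) responded at an adjusted p under 0.05 in limma, 917 higher (6.42%) and 1081 lower (7.56%). Under scaling of the arrays to equal medians that split became 1058 higher and 624 lower. In a balanced design with equal spread in all groups this mean response is independent of the difference of responses. It was therefore used to choose the responses whose size was compared. Equal spread does not hold where signals of 1 group lie near the floor, as in some lost responses given below. Only 1 of the 1998 had opposite signs in the 2 genotypes, which a call on their mean nearly ensures. Taken separately, 797 probe sets (5.58%) responded in wild type, 491 higher (3.44%) and 306 lower (2.14%), and 552 (3.86%) in chl1-5. Under median scaling the wild-type split was 609 higher and 183 lower. With the replicate number as a block the mean response was called for 3452 (24.2%), that of wild type for 1690 (11.8%) and that of chl1-5 for 1415 (9.9%). Of the probe sets called in each genotype, 440 were called in both with the same direction and 0 with opposite directions.

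The overall size of the chl1-5 response was below that of wild type in each of the 3 experiments. To avoid shared noise, the difference within one number was set against the mean response of the other two, across the 1998 responding probe sets. The slopes were -0.175, -0.18 and -0.104 in numbers 1, 2 and 3. If each number had the mean response of the others, chl1-5 would be at 83.9%, 83.4% and 90.1% of the wild-type size. Number 1 responded less than the others in both genotypes, so these percentages are not exact within a number. Rises (84.3%, 83.9% and 89.7%) and falls (82.7%, 82.0% and 91.2%) gave much the same values. The order of the numbers carries no meaning, and no test was run on these 3 slopes. The median transcript that rose had a difference of -0.17, -0.08 and -0.06 in numbers 1, 2 and 3, and the median transcript that fell had 0.10, 0.05 and 0.00.

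**Figure D1:**
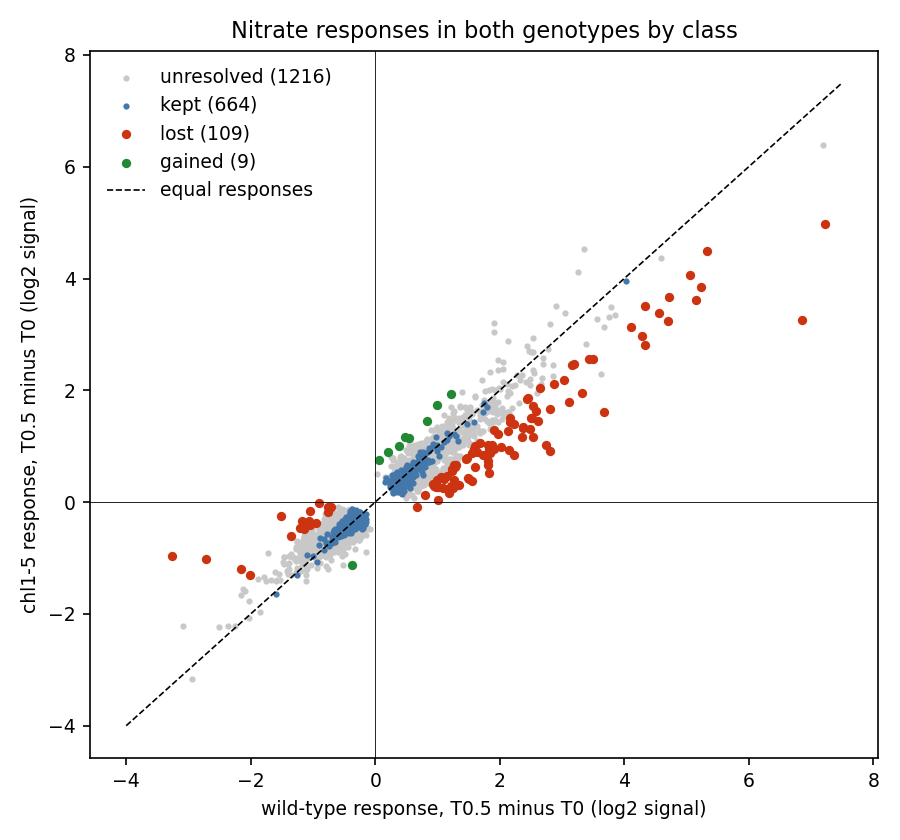
Each point is 1 of the 1998 probe sets that responded on average over both genotypes, with its wild-type response on the x axis and its chl1-5 response on the y axis, both as log2 signal at T0.5 minus T0. Colours give the class of the response (lost, kept, gained or unresolved, with the number of each) and the dashed line marks equal responses; the 109 lost responses lie on the side of the smaller chl1-5 response, and most of them are rises.

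The responding probe sets were then sorted by what happened to their size in the mutant. A response was called lost in size when the difference ran against its direction in all 3 numbers and amounted to at least 1.5-fold (0.58 on the log2 scale) on average. It was called gained when the difference ran with its direction in the same way. It was called kept when the 95% interval of the difference lay wholly within 1.5-fold either way, and unresolved otherwise. By these rules 109 responses (5.46% of 1998) lost size, 9 (0.45%) gained size, 664 (33.2%) kept it and 1216 (60.9%) were unresolved. For comparison, a difference of at least 1.5-fold with 1 sign in all 3 numbers was found in 1.92% of all tested probe sets (0.882% below 0 and 1.04% above 0). Among the 12293 not called in the mean response it was found in 1.28%. An interval within 1.5-fold was found in 40.7% of all tested, so the 33.2% of kept responses is no larger than the background. Leaving out the wild-type T0.5 array of number 1 raised the lost count to 170, with the sign condition then covering only the complete numbers. With the replicate block 119 were lost, including the same 109, and 930 of the 1998 had an interval within 1.5-fold. The block changes neither the differences nor their signs, so the return of the 109 is no separate check.

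Counted by the 1.5-fold bound, loss was more frequent among transcripts that rose, and among the strongest of them. Of 917 rises 92 (10.0%) lost size, 8 gained, 214 kept and 603 were unresolved. Of 1081 falls 17 (1.57%) lost size, 1 gained, 450 kept and 613 were unresolved. Among rises under 2-fold 27 of 577 (4.68%) were lost, among those of 2-fold to 4-fold 34 of 254 (13.4%), and among those of 4-fold or more 31 of 86 (36.0%). A fixed bound is easier to reach for a large response, and relative sizes gave no such contrast between rises and falls. The median rise in chl1-5 was 93.6%, 90.9% and 87.6% of the wild-type log2 rise in those 3 size ranges, and the median fall was 88.4%, 83.2% and 93.6% of the wild-type fall (the last over 7 falls). Over all sizes it was 91.7% for rises and 87.8% for falls. No rise of 4-fold or more gained size. Without any bound, a response was smaller in chl1-5 in all 3 numbers for 511 of the 1998 (25.6%) and larger in all 3 for 182 (9.11%), against 2189 and 1547 of all 14291 tested. For the rises of 4-fold or more these counts were 38 of 86 (44.2%) and 3.

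**Figure D2:**
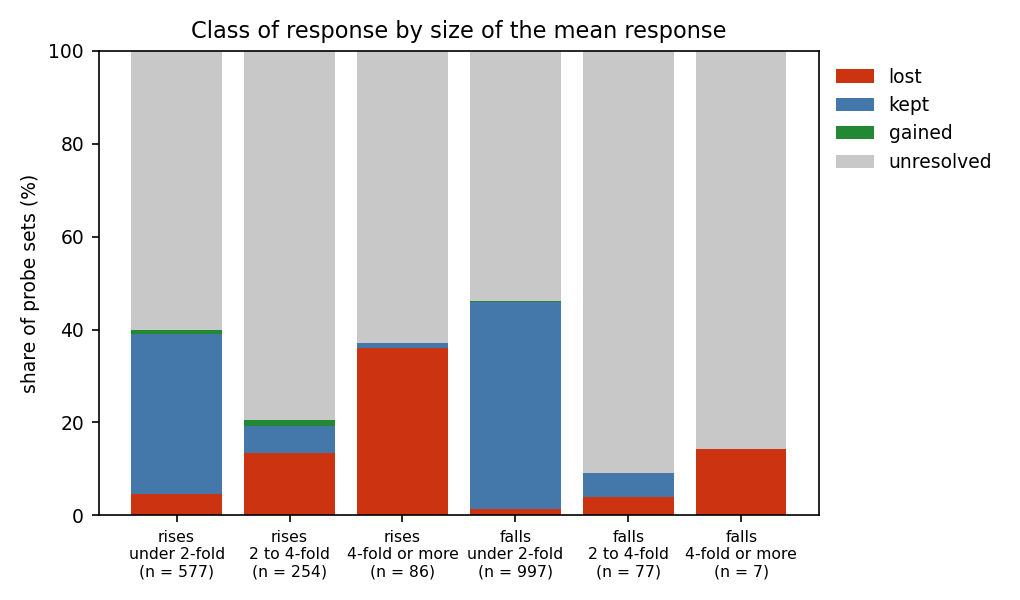
Stacked bars give the share (in %) of responding probe sets in each class, for rises and falls of under 2-fold, 2-fold to 4-fold and 4-fold or more in the mean response. The lost share among rises goes from 4.68% to 36.0% over the 3 size ranges, while the kept share shrinks from 34.3% to 1.16%.

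Responses that were smaller in chl1-5 in 2 experiments were mostly smaller in the one not used to choose them as well, although often by less than the bound. Responses smaller in chl1-5 in numbers 2 and 3, by at least 1.5-fold on average, were 134, and 120 of them (89.6%) were smaller in number 1 as well. The corresponding counts were 114 of 132 (86.4%) in number 2 and 124 of 148 (83.8%) in number 3. For comparison, between 50.8% and 67.2% of all called rises or falls were smaller in chl1-5 in a given number. A difference of at least 1.5-fold in the number not used was found for 70 of the 134, 83 of the 132 and 68 of the 148. The median difference in the number not used was -0.61, -0.76 and -0.53, taken so that a negative value means a smaller response. Responses chosen as larger in chl1-5 carried over less: 14 of 35 were larger in number 1, 9 of 12 in number 2 and 9 of 14 in number 3. The mean response that admitted these probe sets used all 3 numbers. The difference read is independent of it only where the groups have equal spread. Across the 1998 responses the differences of 2 numbers correlated at Pearson's r of 0.27 to 0.37, a description over probe sets measured on the same arrays.

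**Figure D3:**
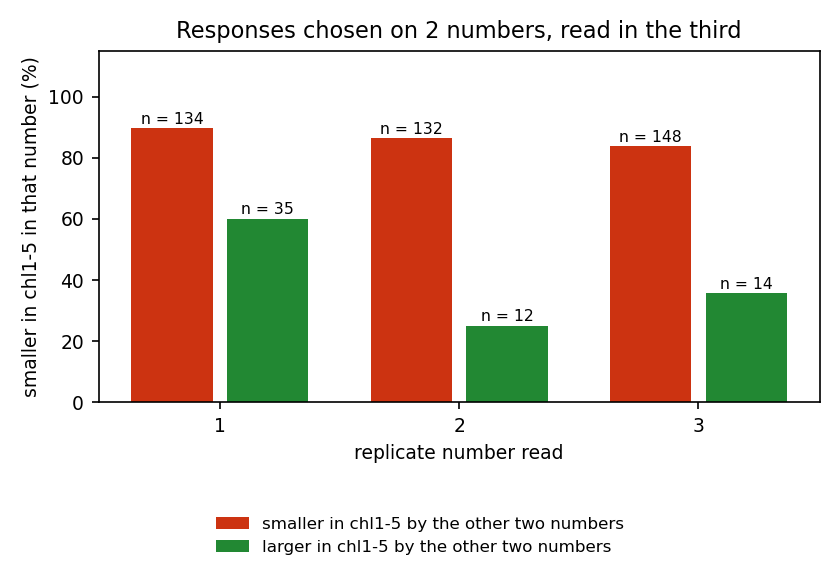
Bars give the share (in %) of responses that were smaller in chl1-5 in the replicate number on the x axis, among those chosen on the other two numbers as at least 1.5-fold smaller or at least 1.5-fold larger. Those chosen as smaller were again smaller in 83.8% to 89.6% of cases, and those chosen as larger were smaller in 25.0% to 60.0%.

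At the median, the lost rises started nearly level and ended apart. Not all of them did: HHO1 and AT5G10210, both dim in each genotype at T0, had T0 gaps of 1.73 and 1.45. Over the 92, the median chl1-5 minus wild-type gap was 0.10 at T0 and -0.79 at T0.5, and the gap was the larger one at T0.5 in 82. Their median rise was 1.94 in wild type and 1.01 in chl1-5. The wild-type rise was called for 89 and the chl1-5 rise for 50 of them. The 17 lost falls had a median of -1.14 in wild type and -0.37 in chl1-5, with a gap of -0.16 at T0 and 0.64 at T0.5. The fall was called for 16 of them in wild type and for 1 in chl1-5. Lost rises and falls were chosen on the difference of responses. Their smaller medians and fewer calls in chl1-5 therefore largely follow from that choice. The change of the gap from T0 to T0.5 is that difference itself, so it follows from the choice as well. Lost responses had a median signal of 485, and 30 of the 109 lay below the array median on all 3 arrays of at least one group. The same held for 0 of 664 kept and 4 of 9 gained responses, whose median signals were 705 and 157.

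Tested gene by gene, the difference of responses was called for 5 of 14291 probe sets (0.035%) and for 17 (0.119%) with the replicate number as a block, all of them lower in chl1-5. At an unadjusted p under 0.05 limma gave 277 without the block (1.94%) and 536 with it (3.75%). Leaving out any single array left 1 to 4 calls. AT5G19970 was called without each of the 12 arrays in turn, 255230_at without 2 of them, 246216_at and 249710_at without 1 and 258350_at without 0. A limma fit to the 3 per-number differences alone called 0, with 529 (3.7%) at an unadjusted p under 0.05, and leaving out a whole replicate number also left 0. AT5G19970, a gene whose role is not given in the annotation used, had the smallest p. Its signals were 282, 291 and 245 in wild type at T0 and 1783, 1944 and 1719 at T0.5. In chl1-5 they were 384, 322 and 290.0 at T0 and 700.0, 700.0 and 607 at T0.5. All T0.5 signals of the mutant lay below all those of wild type, while at T0 the mutant arrays overlapped the upper end of wild type. The rise was 6.66-fold in wild type and 2.02-fold in chl1-5, a difference of -1.72 ± 0.18 (SE, limma adjusted p = 0.00679), with -1.79, -1.62 and -1.74 in the 3 numbers.

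The other probe sets called without the block carry no gene name in the annotation used, and are given by probe set. The signal of 246216_at went from 409 ± 19.4 (SD, n = 3 arrays, as for each mean here) to 929 ± 18.0 in wild type and, in chl1-5, from 412 ± 13.0 to 462 ± 7.05, so that only 13.9% of the log2 rise was left. Its difference was -1.02 ± 0.13 (SE, limma adjusted p = 0.0162). For 258350_at the rise was 2.84-fold in wild type and 1.34-fold in chl1-5, with a difference of -1.09 ± 0.15 (SE, limma adjusted p = 0.0222). 255230_at rose in both, 5.73-fold and 2.84-fold, and differed by -1.01 ± 0.12 (SE, limma adjusted p = 0.0162). 249710_at rose 2.31-fold in wild type, from 2065 ± 86.2 to 4759.9 ± 118, and in chl1-5 went from 2020.2 ± 13.2 to 2483 ± 225. Its chl1-5 rise passed only with the block (limma adjusted p = 0.0921 without and 0.0318 with it), and its difference was -0.91 ± 0.12 (SE, limma adjusted p = 0.0222). In these 5 the T0 means of both genotypes were within 0.28 of each other on the log2 scale, and their T0.5 means lay 0.94 to 1.44 apart.

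A further 12 probe sets passed only with the replicate block, 6 of them with a gene name. AT5G01740, of the NTF2-like family, had signals of 1236, 1212 and 1351 in wild type at T0.5 against 217, 339 and 357 in chl1-5, from T0 signals between 70.9 and 129.5 in both. Its rise was 12.8-fold against 3.08-fold, and its difference was -2.05 ± 0.35 (SE, limma adjusted p = 0.134 without and 0.00591 with the block). AT1G80380, glycerate kinase, went from 283 ± 19.3 to 7453 ± 1049 in wild type and, in chl1-5, from 360.0 ± 94.6 to 3406 ± 875. Its differences of -1.31, -1.59 and -1.52 gave an adjusted p of 0.305 in limma without and 0.00724 with the block. AT2G48080, of the 2-oxoglutarate and iron dependent oxygenase superfamily, rose 37.5-fold and 14.4-fold, with a difference of -1.38 ± 0.41 (SE, limma adjusted p = 1 without and 0.0297 with the block). AT3G16560, a protein phosphatase 2C, rose 5.66-fold and 2.83-fold and differed by -0.93, -1.02 and -1.05 in the 3 numbers.

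AT1G73920 and AT1G49000 rose in wild type, while their chl1-5 responses did not pass the test. AT1G73920, an alpha/beta hydrolase of the lipase family, had signals of 1977, 2141 and 2226 at T0.5 in wild type against 948, 1111 and 1148 in chl1-5, from T0 means of 844 ± 127 and 866 ± 108. The wild-type rise of 1.34 ± 0.14 on the log2 scale (limma adjusted p = 6.84e-05) stood against 0.31 ± 0.14 in chl1-5 (limma adjusted p = 0.278), and the difference was -1.03 (limma adjusted p = 0.0436 with the block). AT1G49000 rose in wild type from 79.6 ± 20.1 to 225 ± 32.3 and in chl1-5 went from 136 ± 17.4 to 114 ± 44.2. Its difference was -2.09, -2.25 and -1.13 in the 3 numbers (limma adjusted p = 0.305 without and 0.033 with the block), and its mean response was not called without the block (limma adjusted p = 0.0503, and 0.00853 with it), so it is in no class. The unnamed probe set 245113_at was likewise outside the mean response, at 0.39 in wild type and -0.45 in chl1-5, neither called without the block and both called with it (limma adjusted p = 0.0193 and 0.00968). The other 5 unnamed probe sets (248756_at, 245977_at, 249325_at, 250278_at and 260623_at) were lost rises with differences between -0.76 and -1.22. 249325_at was the strongest by p, with T0.5 signals of 6129, 6663 and 6298 in wild type and 3675, 4359 and 3880 in chl1-5, a rise of 10.8-fold against 5.90-fold.

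**Figure D4:**
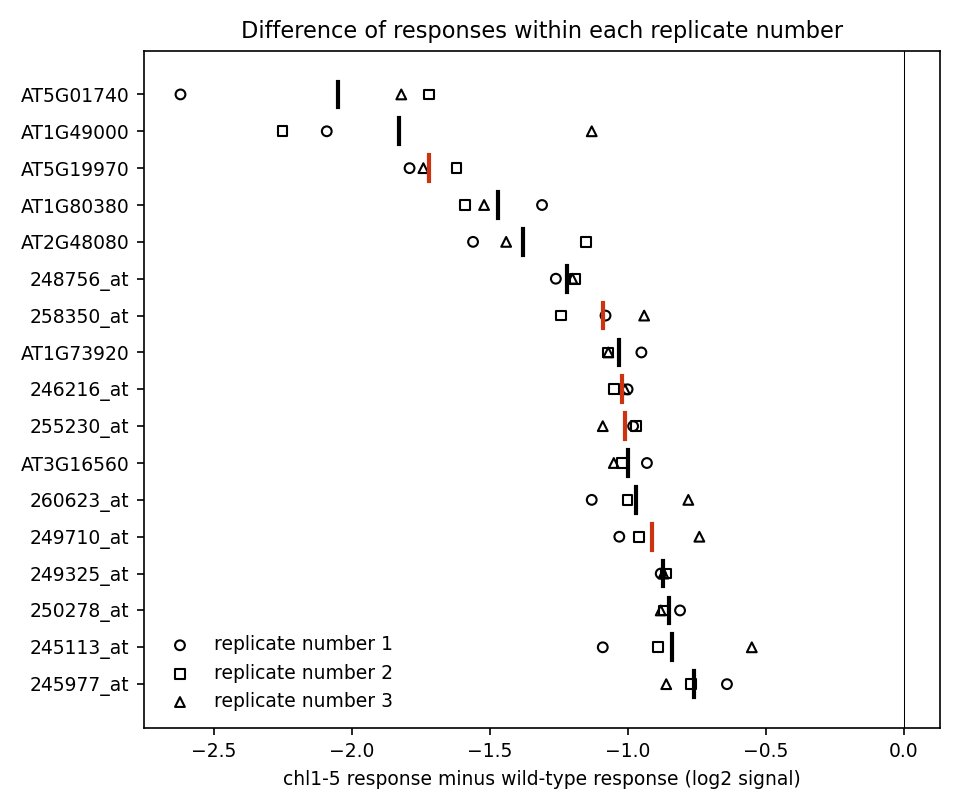
For each gene or probe set on the y axis, the open circle, square and triangle give the difference of responses (chl1-5 minus wild type, log2 signal) within replicate numbers 1, 2 and 3, and the vertical bar gives the difference over the 12 arrays, red where it passed without the replicate block and black where it passed only with it. All 17 lie below 0 in all 3 numbers, and AT5G19970 lies between -1.62 and -1.79.

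Among nitrate response regulators, 29 genes were listed and 4 could be followed under their names, all of them called as rising in the mean response. The median difference over them was -0.40, against 0.03 over all tested probe sets, and none of the 4 was called in the difference. Over all 14291 probe sets tested, 0.763% were classed as lost and 0.063% as gained. HHO1 (AT3G25790), a repressor of the HHO family, fell in the lost class. It was a rise of 4-fold or more in the mean response, of which 36.0% were lost. Its signals at T0.5 were 367, 486 and 299.8 in wild type and 78.4, 125 and 112 in chl1-5, with no overlap. Its T0 signals lay between 1.2 and 30.1, close to the floor of the array, so the differences of -4.07, -6.61 and -0.13 mostly reflect values without a measured order. Its chl1-5 rise was called only with the block (limma adjusted p = 0.0468). HHO2 (AT1G68670) rose by 2.2 in wild type and 1.68 in chl1-5, with a difference of -0.52 (95% interval -1.12 to 0.07) that was below 0 in all 3 numbers. HHO3 (AT1G25550) rose by 2.49 and 2.21, with -0.68, -0.24 and 0.10 in the 3 numbers. NRG2 (AT3G60320), a nitrate regulatory protein known to interact with NLP7, was in the kept class, at 0.57 in wild type and 0.37 in chl1-5, the latter called only with the block (limma adjusted p = 0.0498). Of 24 genes of nitrate transport and assimilation, only the high-affinity transporter gene NRT2.5 had a named probe set. It went by -0.66 in wild type and -0.83 in chl1-5, and its difference ranged from -1.26 to 0.62 over the numbers.

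Of 9 listed genes of glycolysis and carbon skeletons 4 were tested, and PGM and glycerate kinase were classed as lost. Both were rises of 4-fold or more in the mean response, of which 36.0% were lost, against 0.763% of all tested probe sets. PGM, a phosphoglycerate mutase, had signals of 5513, 5748 and 5246 in wild type at T0.5 and 2834, 2879 and 3115 in chl1-5, from T0 means of 209 ± 19.9 and 234 ± 47.0. The T0.5 groups did not overlap and the T0 groups did. It rose 26.4-fold and 12.7-fold, with a difference of -1.05 ± 0.19 (SE, limma adjusted p = 0.233 without and 0.0819 with the block). Glycerate kinase, given above, passed the test of the difference with the block only. The remaining tested members, cytosolic isocitrate dehydrogenase (cICDH) and the phosphofructokinase PFP (AT1G12000), were not called, at 0.04 and 0.05 in the mean response. Over the 4 tested members the median difference was -0.58.

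In the oxidative pentose phosphate pathway, which supplies NADPH in root plastids, 4 of 17 listed genes were tested and the median difference was -0.30. The 6-phosphogluconate dehydrogenase gene PGD3 (AT5G41670) went from 1389.8 ± 117 to 6610.3 ± 1455 in wild type and, in chl1-5, from 1341 ± 98.9 to 3640.3 ± 996, with differences of -0.58, -0.80 and -1.09, and was classed as lost. Its relative PGD1 (AT1G64190) rose 3.69-fold and 2.71-fold, with differences of -0.45, -0.52 and -0.36 that stayed under the bound of 1.5-fold. PGD2 (AT3G02360) and the transaldolase gene TRA1 (AT1G12230) were not called in either genotype. None of the 4 was called in the difference of responses, against 0.035% of all tested probe sets. Over all tested 0.763% were classed as lost, and of rises of 2-fold to 4-fold in the mean response, as that of PGD3, 13.4%.

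Among transcription factors, 10 bZIP genes were tested and bZIP58 was the only one in the lost class. It rose by 1.49 in wild type and 0.43 in chl1-5, with differences of -1.24, -1.06 and -0.88. Of all tested probe sets 0.763% were lost, and of rises under 2-fold in the mean response, as here, 4.68%. BZIP53, which is known to act in carbon starvation and low-energy responses, rose by 1.24 and 0.99, with -0.22, -0.29 and -0.24. The median difference over 5 WRKY genes was 0.27, against 0.03 over all tested probe sets, and its sign has no single reading. WRKY6 and WRKY47 fell in the mean response, by 0.76 and 0.9 in wild type and by 0.49 each in chl1-5. Their differences of 0.27 and 0.41 therefore mean smaller falls in the mutant. WRKY22, a factor of defence signalling, rose by 1.72 and 2.18, and its difference was -0.09, 0.72 and 0.75.

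The remaining large losses among named genes were single genes of varied function. AT1G72220, a RING-H2 ubiquitin ligase of the ATL family, rose from 139 ± 7.42 to 489 ± 17.1 in wild type and went from 128 ± 38.6 to 181 ± 28.0 in chl1-5. It differed by -1.29 ± 0.27 (SE, limma adjusted p = 0.305 without and 0.0687 with the block). AT3G07350 rose 23.6-fold and 10.4-fold, with differences of -2.08, -0.88 and -0.57. AT2G17060, a receptor-like gene of the TIR-NBS-LRR class, kept 24.2% of its wild-type log2 rise of 1.55. Its chl1-5 rise was not called (limma adjusted p = 0.521 without and 0.383 with the block). It did not start level: the T0 means were 60.0 ± 11.8 in wild type, a low signal, and 94.0 ± 31.2 in chl1-5. The chl1-5 minus wild-type gap was 0.61 at T0 and -0.56 at T0.5. AT5G10210 and the cytochrome P450 gene CYP718 had differences of -2.24 ± 1.47 and 2.30 ± 1.19 (SE), but in both 1 group held signals near the floor: AT5G10210 was at 1.4 on 1 of its wild-type T0 arrays, and CYP718 at 5.3 and 11.7 on 2 of its wild-type T0.5 arrays. The size of those differences is therefore uncertain. The lost responses without a gene name and with the largest differences were those of 257140_at (-1.89), 251097_at (1.71, a fall) and 259365_at (-1.55). The first 2 also rest on signals near the floor. 257140_at was at 5.0 on 1 wild-type T0 array, with differences of -1.08, -3.85 and -0.74, and 251097_at was at 5.3 and 21.2 on 2 wild-type T0.5 arrays, with 1.59, 2.88 and 0.65. 259365_at rose by 5.16 in wild type and 3.62 in chl1-5.

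**Figure D5:**
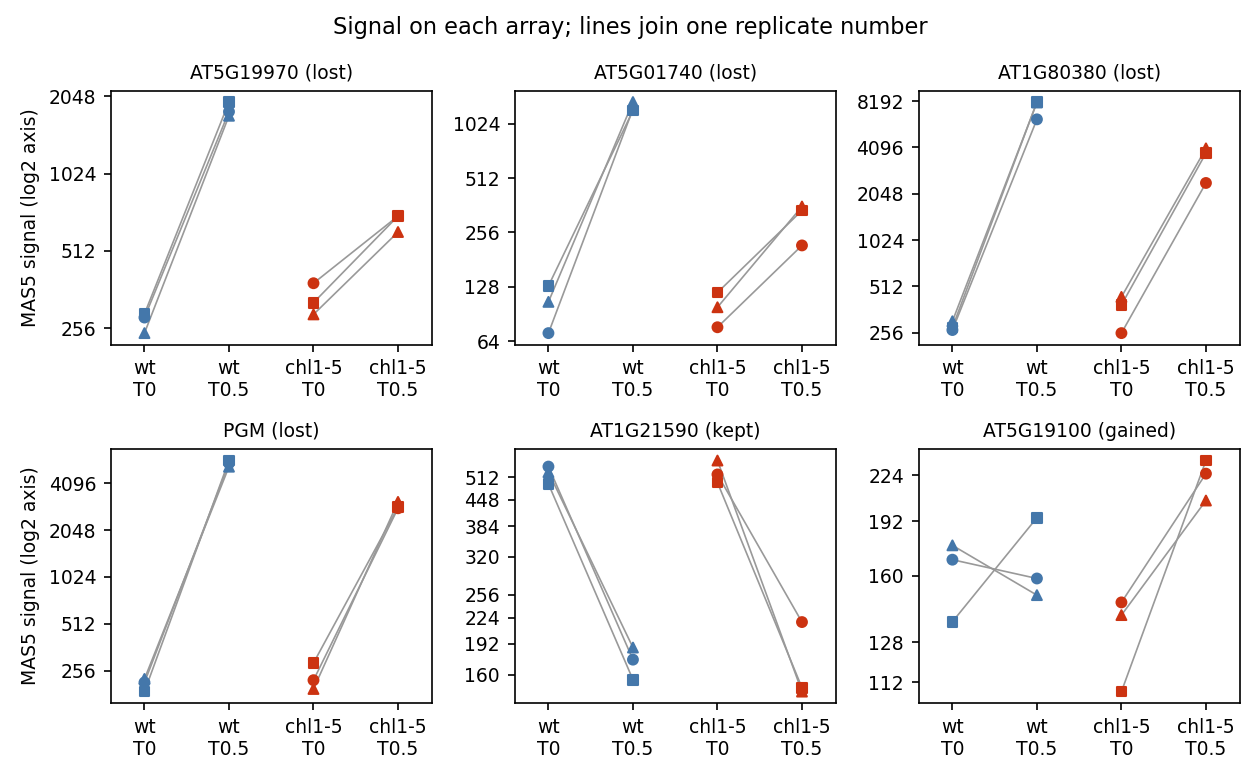
MAS5 signal (log2 axis) on each of the 12 arrays for 4 lost, 1 kept and 1 gained response, with wild type in blue and chl1-5 in red, and circles, squares and triangles for replicate numbers 1, 2 and 3 joined from T0 to T0.5. In the 4 lost responses the genotypes start at similar levels and all chl1-5 signals at T0.5 lie below all wild-type ones. AT1G21590 falls by similar amounts on average in both genotypes. AT5G19100 rises in all 3 numbers in chl1-5 but in 1 of 3 in wild type.

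Some strong responses kept their size closely on average over the 3 numbers. The largest was that of the unnamed probe set 248964_at, with signals of 3198, 3226 and 3450.1 at T0.5 in wild type and 3109, 2772 and 3409 in chl1-5, from T0 means of 202 ± 17.0 and 202 ± 39.7. The groups overlapped at both times. It rose 16.4-fold and 15.5-fold, with a difference of -0.08 (95% interval -0.51 to 0.36), and was the only rise of 4-fold or more in the kept class. AT5G59490, a haloacid dehalogenase-like hydrolase, rose 3.48-fold and 3.25-fold, with a difference of -0.10 (95% interval -0.54 to 0.35). The protein kinase gene AT1G21590 fell from 522 ± 27.0 to 173 ± 16.3 in wild type and, in chl1-5, from 527 ± 34.8 to 170.4 ± 41.4. Its difference was 0.39, -0.08 and -0.47 in the 3 numbers, so it did not keep one sign. Another kinase gene, AT1G66930, fell by 1.26 and 1.31 on the log2 scale, with differences of 0.09, 0.16 and -0.38.

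The rest of the 10 largest kept responses with a gene name had mean responses of about 2-fold. The aspartyl protease gene AT4G16563 rose by 1.19 in both genotypes, and THE1, the receptor kinase THESEUS1 that monitors cell wall integrity, rose by 1.00 and 1.03. The differences of THE1 were 0.33, 0.2 and -0.44 in the 3 numbers. The glucanase gene AT3G55430 rose by 1.16 and 1.24, the hydrolase gene AT3G15650 by 1.29 and 1.19, and AT1G17620 by 0.93 and 1.04. The acyltransferase gene AT3G50280 fell by 0.94 and 1.08. Both root hair markers with a named probe set were kept falls, at -0.79 and -0.73 for EXPA7 and -0.40 and -0.39 for EXPA18. Over all 19 tested expansins and xyloglucan transferases, which loosen and remodel the cell wall, 5 rose and 5 fell in the mean response, and the median difference was 0.00 against 0.03 over all tested. None of the 19 was lost or gained, which at shares of 0.763% and 0.063% over all tested says nothing about these genes in particular. One of them, EXPA9, fell by 1.68 in wild type and 1.40 in chl1-5.

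Gains in size were few and were not a result of the test. None of the 9 was called in the difference with or without the block, and 2 of the 8 rises had an unadjusted p under 0.05. The count was the least stable of the 3 classes: it was 70 without the chl1-5 T0.5 array of number 1, 23 without the chl1-5 T0 array of number 1, 48 without all of number 1, 2 without number 2, and 3 without the wild-type T0.5 array of number 2. It was 5 without the wild-type T0 array of number 2 or that of number 3. In these leave-outs the sign condition covered only the numbers that kept all their arrays. That makes the class easier to enter, so the counts do not show the influence of an array alone. The 8 gained rises differed at T0 more than at T0.5. Their median chl1-5 minus wild-type gap was -0.43 at T0 and 0.22 at T0.5, and it was the larger one at T0.5 in 2 of 8, against 82 of 92 for the lost rises.

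AT5G19100, an aspartyl protease gene, was the gained response with the smallest unadjusted p (0.0121, limma). Its signals in wild type were 169, 137 and 177 at T0 and 159, 194 and 149.9 at T0.5, which overlap. In chl1-5 they were 146, 109 and 140.2 at T0 and 225, 235 and 206 at T0.5, which do not. The difference was 0.71, 0.61 and 0.79 in the 3 numbers (limma adjusted p = 1). AT1G21830 had T0 signals of 241, 236 and 253 in wild type and 221, 102 and 186 in chl1-5, so that the mutant started lower on all 3 arrays. At T0.5 it stood at 280.3 ± 33.6 and 300.1 ± 13.1. The leucine-rich repeat gene AT2G26380 rose 2.32-fold in wild type (called only with the block, limma adjusted p = 0.0344) and 3.85-fold in chl1-5, from T0 means of 74.3 ± 9.18 and 49.7 ± 14.2, below the array median in both genotypes. AT1G56060, a small cysteine-rich transmembrane protein gene, AT1G72940, of the TIR-NBS class, and AT3G55840, a homologue of a nematode resistance protein, had differences of 0.73, 0.68 and 0.62, each with SE of 0.49 or more.

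The other listed groups showed no difference that passed the test, which 0.035% of all tested probe sets passed. APS3, an ATP sulfurylase gene of sulfate assimilation, changed by 1.07 and 0.98, rises that each genotype passed only with the block (limma adjusted p = 0.00898 and 0.0182), with differences of -0.21, 0.02 and -0.08. The sulfite reductase gene SIR had a mean response of 0.25 that was called only with the block (limma adjusted p = 0.262 without and 0.00733 with it). CML38 changed by 2.2 and 2.07, also called in each genotype only with the block (limma adjusted p = 0.0142 and 0.0233), with differences of -0.65, 0.12 and 0.15, and was unresolved. The median difference was 0.02 over 26 UDP-glucosyltransferases, -0.05 over 10 autophagy genes and 0.08 over 7 calmodulin-like genes, against 0.03 over all tested. Over 12 cytochromes P450 it was 0.02, and CYP718, given above, was the 1 lost among them. Of all tested probe sets 0.763% were lost, and of falls in the mean response, as that of CYP718, 1.57%.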

How the data were processed

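Root RNA of 12 samples, 3 per group, was hybridised to Affymetrix ATH1 arrays from 6 μg of total RNA. The deposited values are signal intensities on a linear scale, made with MAS5 per the submitters' processing notes, which give no version. Each array's mean signal after removal of 2% at each end lay between 499.4 and 500.6, and array medians between 176.2 and 195.4. No 2 arrays held identical values.

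Of 22746 probe sets without controls, 13513 carried 1 gene in the platform annotation (13436 matched to the RefSeq gene table of TAIR10.1), 503 carried several and 8730 were not listed, so they are given by probe set. Signals were floored at 0.1 and taken to log2. The 14291 probe sets that reached the 40th percentile of an array in at least 3 arrays were tested. limma 3.58.1 in R 4.3.3 fitted 4 group means over the 12 arrays, with eBayes (trend), two-sided tests and Benjamini-Hochberg adjustment over all tested; calls used an adjusted p under 0.05, and intervals are at 95%. The script was tested on simulated data.

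Arrays of 1 number deviated together: deviations from group means correlated at 0.207 to 0.772 in 18 pairs of the same number and at -0.629 to -0.01 in 36 pairs of different numbers. The labels describe each replicate as an independent experiment, and both genotypes shared vessels. The numbers therefore pair the arrays, and the fit with the number as a block is given beside a named difference or response whose call it changed.

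Named were the probe sets called in the difference with or without the block, the 10 largest lost, gained and kept with 1 gene (for kept, by mean response), the 3 largest of each without a name, and list members with a named probe set, the brightest per gene. The classes, members and lists were chosen with earlier results of these data known. Alternatives covered the floor (50), the filter (none, 60th percentile), scaling (median, quantile), eBayes without trend, the block, a fit to per-number differences, a 2-fold bound, no condition on sign, and leaving out each array or number. Promoter and other sequences were not used here.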

Additional observations from a re-analysis of the deposited data

Results flagged for a closer look

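The test of the difference of responses itself (limma over the 12 arrays, adjusted over 14291 probe sets) singled out 5 probe sets whose nitrate response differed between wild type and chl1-5. AT5G19970 (246142_at) had a difference of -1.72 on the log2 scale, 258350_at of -1.09, 246216_at of -1.02, 255230_at of -1.01 and 249710_at of -0.91. In each of them the rise was smaller in chl1-5 in 3 of 3 replicate numbers. The wild-type rise was called in all 5, and the chl1-5 rise was called in AT5G19970, 255230_at and 258350_at but not in 246216_at (limma adjusted p = 0.388) or 249710_at (limma adjusted p = 0.0921 without and 0.0318 with the replicate block). No cause of these differences was tested.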

How the results depend on the processing

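Without the block, and with all 12 arrays, 5 differences of responses were called under 5 of the alternatives (a floor of 50, no filter, the 60th percentile, median scaling and quantile normalization), 3 with eBayes without trend, 17 with the replicate block and 0 in the fit to per-number differences. Leaving out arrays or numbers gave 0 to 4. The replicate block raised the called mean responses to 3452, wild-type responses to 1690, chl1-5 responses to 1415 and kept responses to 1791, and the last was 1179 in the per-number fit. Leave-outs ranged from 501 to 2418 for the mean response, 177 to 927 for wild type, 74 to 854 for chl1-5, 84 to 170 for lost, 46 to 662 for kept and 2 to 70 for gained responses. Fewer arrays widen the intervals, which lowers the kept count by construction. A leave-out also restricts the sign condition to the complete numbers, which makes the lost and gained classes easier to enter. A 2-fold bound left 36 lost, 0 gained and 1512 kept. Gained responses were 2 at the 60th percentile, 5 after quantile normalization and 18 with no condition on sign. The cause of the other changes was not tested. Of the 109 lost responses, 100 were also lost under median scaling and 102 under quantile normalization. All 109 were lost with the block, which was nearly fixed in advance. The block changes neither the differences nor their signs, only which mean responses are called. No named gene's difference changed sign where it was called. Signals below the array median on all arrays of a group were found for 30 of the 109 lost responses, HHO1 and AT5G10210 among them, and for 4 of the 9 gained.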

Other observations

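Outside the responding probe sets, differences above 0 were more frequent than differences below 0. Of the 12293 probe sets not called in the mean response, 124 (1.01%) had a difference above 0 in all 3 numbers and of at least 1.5-fold, and 33 (0.268%) had one below 0. The 124 were dim, with a median signal of 127 against 439 over the 12293. Their median change was -0.43 in wild type and 0.31 in chl1-5, with 114 below 0 in wild type and 102 above 0 in chl1-5. These opposite signs largely follow from choosing a difference of that size together with a mean response that was not called. With most wild-type changes below 0, a difference above 0 does not mean a larger response in chl1-5 here. None of the 124 was called in the difference by limma, and 48 had an unadjusted p under 0.05. The excess shrank with the scaling of the arrays: the counts were 73 above and 57 below 0 after median scaling, and 70 and 53 after quantile normalization.

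The 48 tested transcripts of the plastid genome, a group chosen after values were seen, had a median change of 0.12 in wild type and 0.37 in chl1-5. The median difference was 0.25 overall and 0.42, -0.19 and 0.44 in the 3 numbers, so it did not keep one sign, and 0 were called in the difference (limma).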
